A study of Mus musculus with 10 samples.

Results

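Interferon-stimulated genes are the genes that cells switch on when they sense interferon, and 40 of them were followed here in the livers of mice given an antisense oligonucleotide (ASO) against Mboat7. The 40 were taken as a list of gene symbols by their known induction by interferon and not by a rule on their values, although earlier results of these data were known. They were ordered by the role of their products: 5 transcription factors, 5 nucleic acid sensors, 3 IFIT proteins, 5 OAS proteins, 10 Mx, viperin and other antiviral effectors, 2 genes of ISG15 conjugation, 3 PARP proteins, 4 guanylate-binding proteins and 3 immunity-related GTPases. All 40 were among the 24411 gene symbols counted. All 40 were also among the 12609 genes tested, those with at least 1 CPM (a gene's count scaled to a common library size) in at least 1 library, and each member reached that level in at least 1 control library.

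RNA-seq was made from total RNA of liver homogenate. The mice were male C57BL/6 (strain background given as C57Bl6/J), 8 weeks old at the start and treated for 20 weeks. A high-fat diet was fed in this experiment; the labels name it and chow without assigning them to samples. The 5 Control ASO livers (replicates 1 to 5) came from mice that received a non-targeting oligonucleotide and the 5 Mboat7 ASO livers (replicates 6 to 10) from mice given one against Mboat7, both intraperitoneally at 12.5 mg/kg. Mboat7 encodes a lysophosphatidylinositol acyltransferase, and the comparison asked how its knockdown changes liver gene expression. The labels describe more than one Mboat7 ASO without saying which was used here, the tissue is labelled normal liver, and an injected ASO is not restricted to hepatocytes. The labels name no batch and do not state that each library came from a separate mouse, so p-values measure only the spread between these samples.

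Interferons signal through cell-surface receptors and the kinases JAK1, JAK2 and TYK2. Type I and type III interferons bring STAT2 and IRF9 into a complex that binds the interferon-stimulated response element (ISRE) in promoters, while interferon gamma acts through the gamma-activated site (GAS). Hepatocytes, endothelial cells and Kupffer cells of the liver all respond, and the products block viral entry, translation and replication or attack intracellular microbes.

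The 2 elements were searched in RefSeq promoter windows (build GRCm38.p6), which reach from 250 bases before to 50 bases after a transcription start, as GAAANNGAAA for the ISRE and TTCNNNGAA for the GAS. Both strands were read, and N is any base. Windows were found for 29 of the 40 members. The ISRE letters were in a window of 17 of these 29 genes (58.6%) and of 3.99% of all 27025 genes with a window. The GAS letters were in 9 of 29 (31%) and in 9.55% of all genes. Among members with a window, the ISRE letters were in 5 of the 7 that rose under the Mboat7 ASO, in 4 of the 5 that fell and in 8 of the 17 not called. The matches of 1 member, Ifitm3, shared bases between the ISRE and the GAS. For each role group the member of lowest p among those with a match is shown, with the matched letters in capitals, so that the element can be seen beside the direction of the gene. Among the Mx, viperin and other effectors that member is Ifitm3, whose matches lie only after the start and are not printed, and no PARP gene with a window had a match. Where an annotated exon of any transcript lay in the stretch (Eif2ak2 and Irgm1), only a short piece is given. Positions count back from -1, the base before the start. Matches outside a printed stretch are not shown: Eif2ak2 also has an ISRE at position 19 after the start, and Gbp7 a GAS at -106.
Oas3, chr5:120777690-120777769, minus strand, ISRE at -75: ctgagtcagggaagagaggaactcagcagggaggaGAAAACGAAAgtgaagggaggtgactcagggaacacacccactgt
Isg15, chr4:156200840-156200919, minus strand, ISRE at -78, -72 and -66: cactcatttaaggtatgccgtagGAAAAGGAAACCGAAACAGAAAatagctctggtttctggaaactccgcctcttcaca
Gbp7, chr3:142530248-142530327, plus strand, GAS at -87 and ISRE at -53: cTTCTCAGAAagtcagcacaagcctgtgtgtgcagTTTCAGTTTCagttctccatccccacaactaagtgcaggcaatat
Irgm1, chr11:48871431-48871454, minus strand, ISRE at -30 and -24: tcaaGAAATAGAAACCGAAActga
Irf8, chr8:120736169-120736248, plus strand, GAS at -171 and -153: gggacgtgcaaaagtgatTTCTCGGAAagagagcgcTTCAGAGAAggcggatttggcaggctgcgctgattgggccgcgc
Ifit2, chr19:34550444-34550523, plus strand, GAS at -241: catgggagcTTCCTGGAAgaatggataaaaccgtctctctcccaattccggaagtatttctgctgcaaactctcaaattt
Eif2ak2, chr17:78882735-78882758, minus strand, GAS at -178: gcagagctTTCCCAGAAtggaagc
The 3 ISRE matches of Isg15 overlapped one another in steps of 6 bases, and the gene fell, while Oas3 with a single match rose. A match is a description of letters and was not tested as a binding site.

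The livers held 25153235 to 28791798 counts a library over 15393 to 16107 genes with a count, and library pairs within a group differed by far more than counting noise (chi-square per degree of freedom 21.8 to 85.7). Mboat7 itself had 951 to 1105 counts in the control livers and 60 to 130 after the Mboat7 ASO; its log2 fold change was -3.63 ± 0.17 (SE, n = 5 a group, edgeR quasi-likelihood test, Benjamini-Hochberg adjusted p = 1.29e-06). Of the hepatocyte markers Ass1 was at 0 to 10 counts in every library, while Alb alone was at 59530 to 106800 CPM. Why this marker was so low was not tested, and its count is not read as absence from the liver. Markers of leukocytes were higher under the Mboat7 ASO: 11 of 12 pan-leukocyte genes were called higher, and their summed level ran from 116 to 189 CPM in control livers and from 179 to 475 CPM in Mboat7 ASO livers, where replicates 9 and 10 (179 and 207 CPM) were lowest and control replicate 2 (189 CPM) lay between them. Endothelial markers were also higher (7 of 8), and of 9 tested hepatocyte markers 5 were lower, 1 (Apob, log2 fold change 0.46) was higher and 3 were not called. The 5 lower markers have 1186 to 3010 bases of annotated exon, the 3 not called 3320 to 5555 bases and Apob 13934 bases. Length moved with direction over all genes, as given below, and its part in the hepatocyte calls was not tested. In whole liver, fewer cells of a type and less RNA per cell cannot be told apart.

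Across the 40 genes no shared direction was seen. At an adjusted p under 0.05, 9 members rose under the Mboat7 ASO (22.5%, against 21.2% of all genes tested), 6 fell (15%, against 17.3%) and 25 were not called. Over 2-fold, 2 members rose, Oas2 and Oas3 (5%, against 6.43%), and none fell; the count of all genes over 2-fold lower was 84. The median log2 fold change of the members was 0.046 and that of all genes 0.010, with 21 members above 0 and 19 below. These shares lay near those of all genes, so the number of calls is not a result about interferon-stimulated genes. By role, 3 OAS proteins (Oas2, Oas3 and Oasl2), 3 sensors (Eif2ak2, Ifih1 and Ddx58), Ifit2, Trim30a and Parp14 rose, while Ifitm3, Ifi35, Rtp4, Isg15 and the immunity-related GTPases Irgm1 and Igtp fell. Role groups hold 2 to 10 genes each. Counts of calls by role, here and below, are descriptions, beside 21.2% higher and 17.3% lower of all genes. Levels of all Mboat7 ASO livers lay above all control livers for 1 member, Eif2ak2 (2.5%, against 10.5%), and below them for 4, Ifitm3, Ifi35, Isg15 and Irgm1 (10%, against 10.7%).

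**Figure D1:**
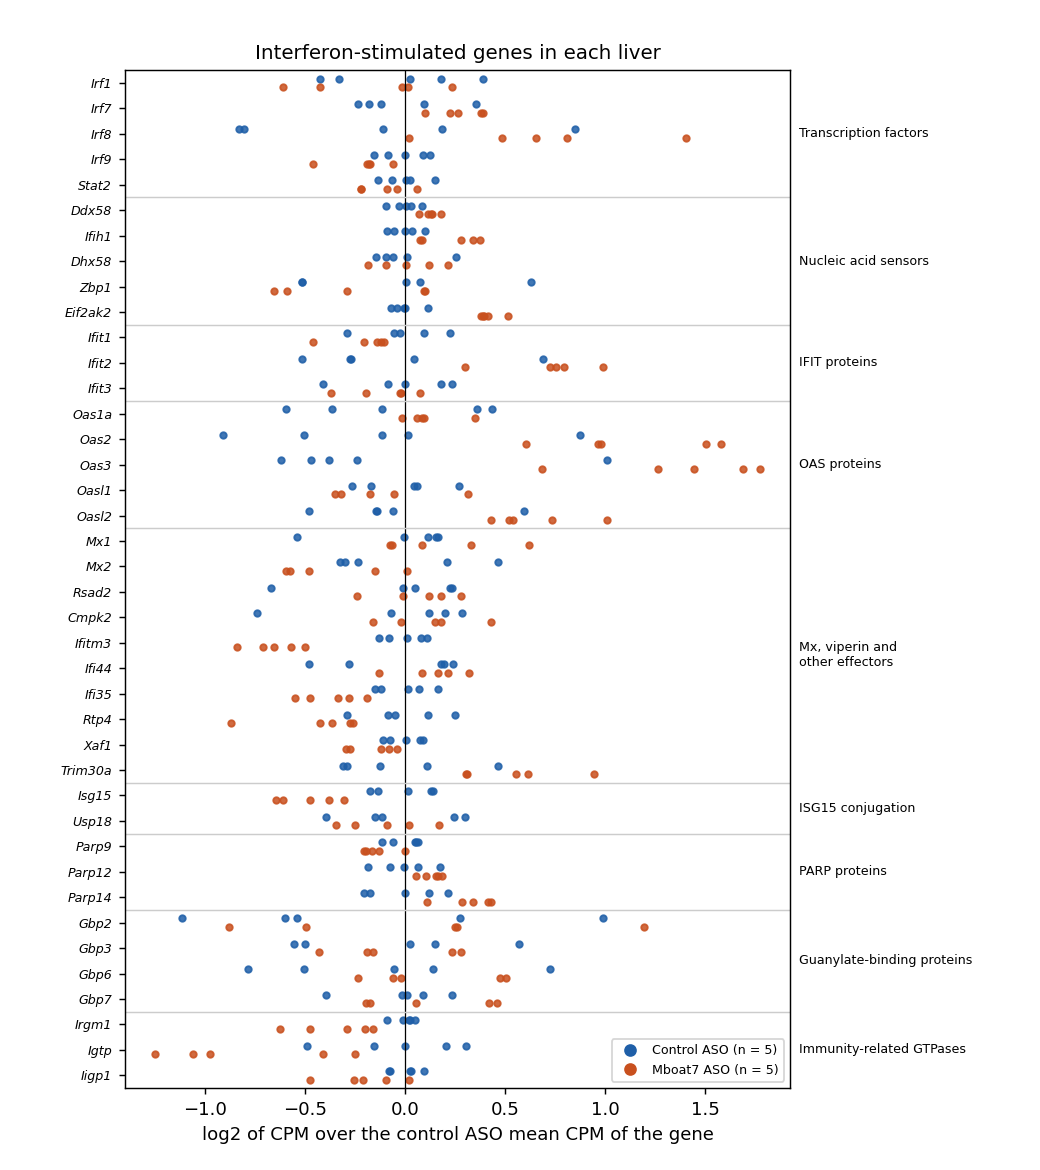
Level of each of the 40 interferon-stimulated genes in each liver, as the log2 of its CPM over the gene's control ASO mean CPM (x axis); each point is 1 library, blue for Control ASO (n = 5) and orange for Mboat7 ASO (n = 5). Points of the groups are separate for Eif2ak2, Ifitm3, Ifi35, Isg15 and Irgm1, and a blue point to the right of the other controls recurs in Oas2, Oas3, Ifit2 and Irf8.

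**Figure D2:**
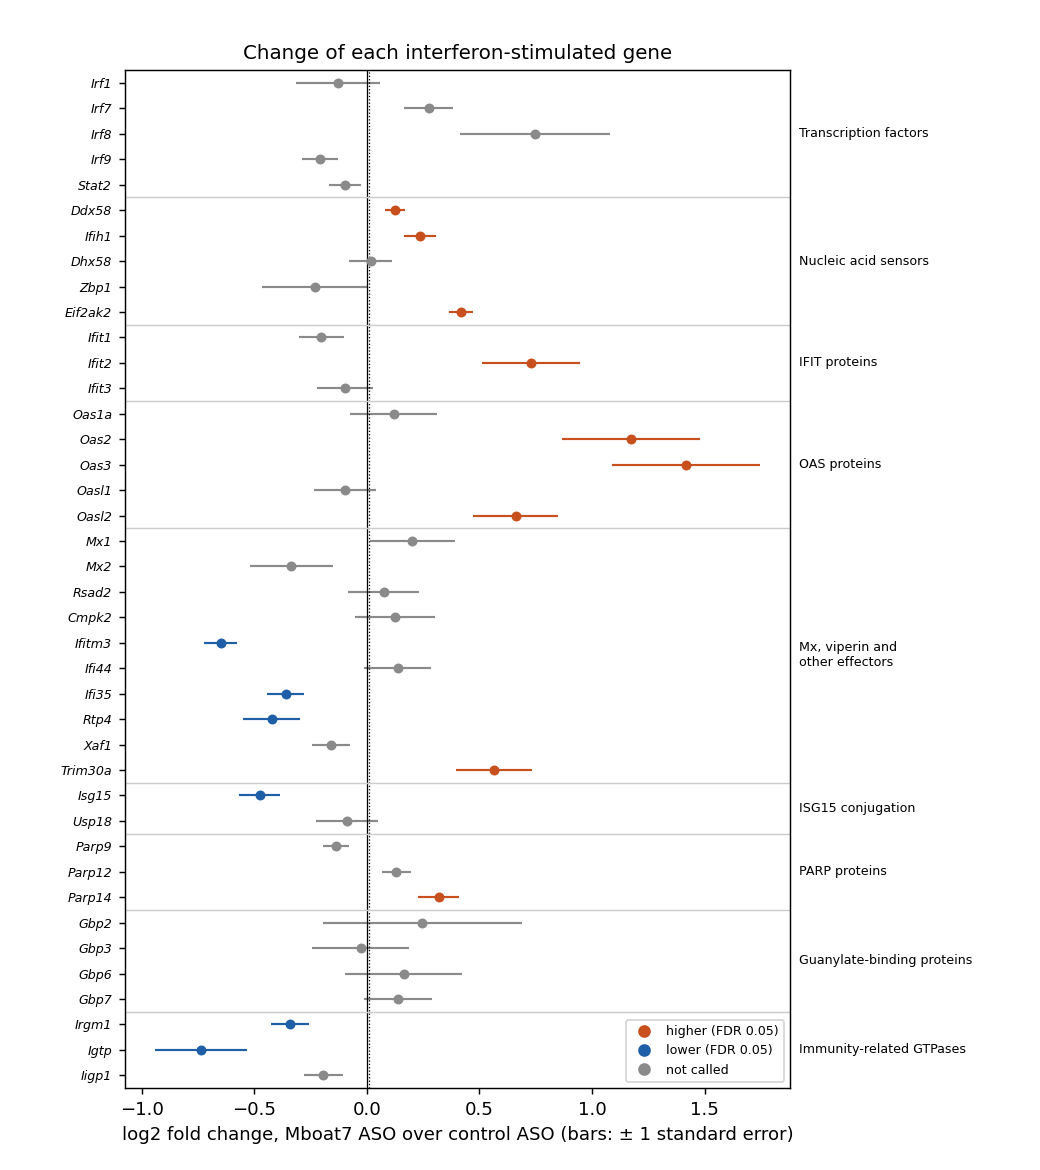
Log2 fold change of each member, Mboat7 ASO over Control ASO (x axis), with bars of 1 standard error; orange points are the 9 genes called higher, blue the 6 called lower and grey the 25 not called, and the dotted line is the median of all genes (0.010). Oas3 (1.42) and Igtp (-0.73) mark the ends of the range.

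Levels differed widely between members. Per kilobase of annotated exon (RPKM), the highest control mean was that of Ifitm3 (549 RPKM), followed by Iigp1 (58.1 RPKM), Igtp (32.0 RPKM), Ifi35 (21.4 RPKM) and Isg15 (20.8 RPKM). At the low end stood Oas3 (0.165 RPKM), Mx1 (0.594 RPKM), Oas2 (0.727 RPKM), Oasl2 (0.808 RPKM) and Irf8 (0.866 RPKM). Of these 5 low genes 3 rose, and of the 5 high genes 4 fell, where 21.2% of all genes rose and 17.3% fell. The 3 that rose have 4451 to 7069 bases of exon and the 4 that fell 678 to 2022 bases. RPKM divides by length, and length moved with direction over all genes, as given below. These counts are therefore not a result about level.

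OAS proteins make the oligoadenylates that switch on the RNA-cutting enzyme RNase L when they bind double-stranded RNA, and 3 of the 5 rose. In the sentences of values here and below, CPM are given in the order of replicates 1 to 5 for the control ASO and 6 to 10 for the Mboat7 ASO. Oas3 was at 0.841, 2.34, 0.988, 0.897 and 0.760 CPM under the control ASO and at 3.99, 3.17, 3.76, 1.87 and 2.80 CPM under the Mboat7 ASO. Control replicate 2 stood apart from the other controls and lay above Mboat7 ASO replicate 9, so the groups overlapped; the mean was 1.17 ± 0.664 CPM (SD, n = 5) in the control livers and 3.12 ± 0.841 CPM in the Mboat7 ASO livers (log2 fold change 1.42 ± 0.33, adjusted p = 0.00765). Counts were low, 148 in all control libraries and 452 in all Mboat7 ASO libraries. Oas2 was at 1.72, 5.92, 3.26, 2.99 and 2.28 CPM under the control ASO and at 9.67, 6.38, 9.17, 4.92 and 6.32 CPM under the Mboat7 ASO. Again control replicate 2 was the highest control and exceeded replicate 9 (log2 fold change 1.18 ± 0.31, adjusted p = 0.0127). Oasl2 was at 4.66, 7.79, 3.69, 4.93 and 4.67 CPM under the control ASO and at 10.4, 8.57, 7.49, 7.37 and 6.94 CPM under the Mboat7 ASO. The same control library overlapped the lower Mboat7 ASO livers (log2 fold change 0.66 ± 0.19, adjusted p = 0.0183). Oasl2 is an enzymatically active OAS-like protein of the mouse. Oas1a was at 4.74, 5.005, 2.45, 2.88 and 3.42 CPM under the control ASO and at 4.71, 3.92, 3.65, 3.85 and 3.95 CPM under the Mboat7 ASO. The groups overlapped fully for Oas1a (log2 fold change 0.12 ± 0.19, adjusted p = 0.65), as they did for Oasl1, which restrains translation of Irf7 in the mouse (19.6 to 28.3 CPM in control and 18.4 to 29.2 CPM in Mboat7 ASO livers; log2 fold change -0.097 ± 0.14, adjusted p = 0.596). Oas2, Oas3 and Oas1a lie in 1 cluster on chromosome 5 (Oas3 at chr5:120753098-120777661, Oas2 at chr5:120730333-120749853 and Oas1a at chr5:120896256-120907521, GRCm38), and Oasl1 and Oasl2 form a separate pair there. The calls of Oas2, Oas3 and Oasl2 held in all 20 alternative fits, which ranged from 1.30 to 1.97 for Oas3, from 1.01 to 1.62 for Oas2 and from 0.55 to 0.89 for Oasl2 on the log2 scale. Reads of near-identical Oas1 genes may be split between them by the counting, so Oas1a is uncertain.

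**Figure D3:**
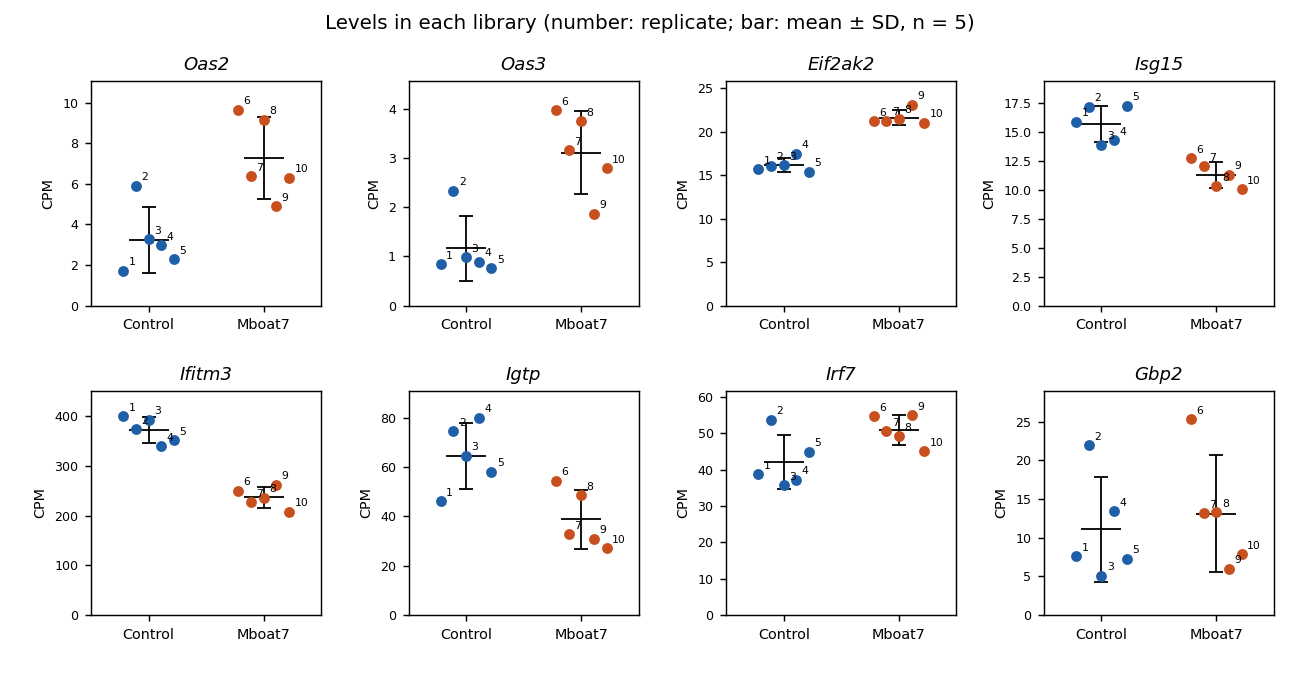
Level in CPM (y axis, from 0) of 8 genes in each library, with the replicate number beside each point and bars of the mean ± SD (n = 5 a group); blue is Control ASO and orange Mboat7 ASO. Oas2 and Oas3 show control replicate 2 above the other controls, Eif2ak2, Isg15 and Ifitm3 show separate groups, and Gbp2 runs from 5.11 to 21.9 CPM within the controls alone.

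Nucleic acid sensors detect viral RNA or DNA in the cytosol, and 3 of the 5 rose while none fell, where 21.2% of all genes rose and 17.3% fell. Eif2ak2 was at 15.7, 16.1, 16.2, 17.5 and 15.4 CPM under the control ASO and at 21.2, 21.3, 21.5, 23.1 and 21.1 CPM under the Mboat7 ASO. Every Mboat7 ASO liver lay above every control liver, and the spread within each group was small (16.2 ± 0.799 CPM (SD, n = 5) in the control livers and 21.6 ± 0.841 CPM in the Mboat7 ASO livers; log2 fold change 0.42 ± 0.054, adjusted p = 0.00151). Eif2ak2 encodes PKR, the kinase that halts translation when it binds double-stranded RNA. Ifih1 was at 43.04, 46.1, 40.5, 41.4 and 44.1 CPM under the control ASO and at 45.6, 55.8, 54.4, 52.3 and 45.3 CPM under the Mboat7 ASO. Control replicate 2 lay above Mboat7 ASO replicates 6 and 10 in Ifih1, which encodes the long-RNA sensor MDA5 (log2 fold change 0.24 ± 0.07, adjusted p = 0.0219). Ddx58 was at 38.1, 39.6, 36.4, 39.1 and 41.3 CPM under the control ASO and at 44, 42.6, 40.8, 42.1 and 42.7 CPM under the Mboat7 ASO. Ddx58, the gene of RIG-I, rose by a small amount, and only control replicate 5 reached into the Mboat7 ASO range (log2 fold change 0.13 ± 0.046, adjusted p = 0.048). Dhx58 was at 21.9, 18.5, 17.2, 16.6 and 17.6 CPM under the control ASO and at 19.96, 17.2, 18.4, 21.3 and 16.1 CPM under the Mboat7 ASO. The groups of Dhx58, the gene of LGP2, overlapped fully (log2 fold change 0.018 ± 0.095, adjusted p = 0.895). Zbp1, a sensor of Z-form nucleic acids that can trigger cell death, was 8.36 to 18.5 CPM in control and 7.59 to 12.8 CPM in Mboat7 ASO livers, with control replicate 2 at the top (log2 fold change -0.23 ± 0.23, adjusted p = 0.455). The call of Eif2ak2 held in all 20 alternative fits (log2 fold change 0.39 to 0.58). That of Ddx58 was lost in 8 of the 10 fits without 1 library, kept without control replicate 5 or Mboat7 ASO replicate 8 alone (adjusted p up to 0.122 otherwise), and it was lost in 9 of 10 other alternatives (adjusted p = 0.0514 to 0.597). That of Ifih1 was lost without control replicate 3 (0.056) and without Mboat7 ASO replicate 8 (0.0523), and with the length trend removed (0.191).

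IFIT proteins bind foreign RNA and curb its translation, and 1 of the 3 rose. Ifit2 was at 3.52, 6.83, 2.96, 4.37 and 3.50 CPM under the control ASO and at 8.41, 7.13, 7.34, 5.21 and 7.005 CPM under the Mboat7 ASO. Control replicate 2 was again the only control within the Mboat7 ASO range (log2 fold change 0.73 ± 0.22, adjusted p = 0.0218). Ifit1 was at 20.5, 18.9, 15.7, 18.5 and 22.5 CPM under the control ASO and at 16.7, 17.7, 17.4, 17.9 and 13.98 CPM under the Mboat7 ASO. Ifit1, which recognises RNA without cap methylation, overlapped between the groups (log2 fold change -0.20 ± 0.099, adjusted p = 0.124). Ifit3 was at 14.4, 18.04, 11.6, 17.4 and 15.3 CPM under the control ASO and at 16.2, 15.1, 13.4, 15.1 and 11.9 CPM under the Mboat7 ASO. Ifit3, a partner of Ifit1, overlapped as well (log2 fold change -0.098 ± 0.12, adjusted p = 0.551). The 3 genes lie within 1 cluster on chromosome 19 (Ifit2 at chr19:34550694-34576419, Ifit3 at chr19:34583531-34588731 and Ifit1 at chr19:34640871-34650009), yet only Ifit2 was called; a difference in change between them was not tested, and reads shared with near-identical Ifit copies may be split between genes. The Ifit2 call was lost without control replicate 1 (adjusted p = 0.0515), control replicate 3 (0.0523) or Mboat7 ASO replicate 6 (0.0524), and Ifit1 was called lower without control replicate 3 (0.0474).

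Among the 10 Mx, viperin and other effectors, 3 fell and 1 rose. Ifitm3 was at 401, 374, 393, 339.6 and 352 CPM under the control ASO and at 251, 228, 236, 263 and 208 CPM under the Mboat7 ASO. All Mboat7 ASO livers lay below all control livers (372 ± 26.1 CPM (SD, n = 5) in the control livers and 237 ± 21.03 CPM in the Mboat7 ASO livers; log2 fold change -0.65 ± 0.075, adjusted p = 0.00121), the lowest p among the members. Ifitm3 blocks the entry of viruses from endosomes, and its transcript (annotated at chr7:141009586-141010770) was the most abundant of the list in both groups, 549 RPKM in control and 349.9 RPKM in Mboat7 ASO livers. Ifi35 was at 41.5, 37.3, 38.8, 33.3 and 33.97 CPM under the control ASO and at 32.4, 29.3, 26.6, 30.5 and 25.3 CPM under the Mboat7 ASO. Groups of Ifi35 were also separate, by less than 1 CPM between the nearest livers (log2 fold change -0.36 ± 0.082, adjusted p = 0.00716). Trim30a was at 7.11, 11.96, 7.94, 9.38 and 6.99 CPM under the control ASO and at 16.7, 13.3, 12.8, 10.7 and 10.8 CPM under the Mboat7 ASO. Trim30a, which dampens Toll-like receptor signalling in mice, rose, and control replicate 2 was the one control within the Mboat7 ASO range (log2 fold change 0.57 ± 0.17, adjusted p = 0.0224). Rsad2 was at 18.9, 16.1, 10.2, 16.8 and 19.1 CPM under the control ASO and at 19.6, 17.6, 18.3, 16.1 and 13.7 CPM under the Mboat7 ASO. Rsad2 encodes viperin, an enzyme that makes a chain-terminating nucleotide, and its groups overlapped with control replicate 3 lowest of all (log2 fold change 0.075 ± 0.16, adjusted p = 0.729). Rtp4, a chaperone of receptor trafficking that restrains flaviviruses, fell, with 17.4 to 25.3 CPM in control and 11.7 to 17.8 CPM in Mboat7 ASO livers (log2 fold change -0.42 ± 0.13, adjusted p = 0.0227). The other 5 were not called. Cmpk2, the mitochondrial nucleotide kinase beside Rsad2 on chromosome 12, had 5.33 to 10.8 CPM in control and 7.96 to 11.96 CPM in Mboat7 ASO livers (log2 fold change 0.13 ± 0.18, adjusted p = 0.593). Mx1 and Mx2 encode dynamin-like GTPases that trap viral particles, and Mx1 is known to be defective in C57BL/6 mice. Mx1 had 1.55 to 2.52 CPM in control and 2.14 to 3.45 CPM in Mboat7 ASO livers (log2 fold change 0.20 ± 0.19, adjusted p = 0.414) and Mx2 5.72 to 9.88 CPM in control and 4.74 to 7.21 CPM in Mboat7 ASO livers (log2 fold change -0.34 ± 0.18, adjusted p = 0.166). Xaf1, a promoter of apoptosis, had 7.49 to 8.59 CPM in control and 6.58 to 7.85 CPM in Mboat7 ASO livers (log2 fold change -0.16 ± 0.083, adjusted p = 0.148), and Ifi44 4.86 to 7.99 CPM in control and 6.18 to 8.44 CPM in Mboat7 ASO livers (log2 fold change 0.14 ± 0.15, adjusted p = 0.492). Ifitm3 held its call in all 20 alternative fits (log2 fold change -0.69 to -0.34). The call of Rtp4 was lost without control replicate 1 (adjusted p = 0.055) or 3 (0.0552) and in 2 of 10 other alternatives (adjusted p = 0.0858 to 0.102), and that of Trim30a without control replicate 1 (0.053), 3 (0.0546) or 5 (0.0508) or Mboat7 ASO replicate 6 (0.056).

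Isg15, the ubiquitin-like protein that is attached to other proteins during the interferon response, fell. Isg15 was at 15.9, 17.2, 13.9, 14.3 and 17.3 CPM under the control ASO and at 12.7, 12.1, 10.3, 11.3 and 10.1 CPM under the Mboat7 ASO. The highest Mboat7 ASO liver (12.7 CPM) was below the lowest control liver (13.9 CPM), with means of 15.7 ± 1.58 CPM (SD, n = 5) in the control livers and 11.3 ± 1.14 CPM in the Mboat7 ASO livers (log2 fold change -0.48 ± 0.092, adjusted p = 0.00397). Usp18 was at 18.96, 25.2, 15.6, 18.5 and 24.3 CPM under the control ASO and at 17.3, 16.1, 19.3, 23.1 and 20.8 CPM under the Mboat7 ASO. Usp18, which removes Isg15 from proteins and restrains the receptor subunit Ifnar2, overlapped between the groups (log2 fold change -0.088 ± 0.14, adjusted p = 0.642).

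PARP proteins of this list attach ADP-ribose to proteins or partner those that do, and 1 of the 3 rose. Parp14 was at 39.9, 50.1, 40.8, 53.4 and 46.1 CPM under the control ASO and at 61.5, 58.3, 62.05, 56.1 and 49.7 CPM under the Mboat7 ASO. Only Mboat7 ASO replicate 10 lay within the control range of Parp14, a mono-ADP-ribosyl transferase (log2 fold change 0.32 ± 0.091, adjusted p = 0.0183). Parp9 was at 85.7, 76.5, 79.7, 86.6 and 86.1 CPM under the control ASO and at 74.03, 72.5, 75.8, 82.8 and 72.1 CPM under the Mboat7 ASO. Parp9 overlapped (log2 fold change -0.14 ± 0.057, adjusted p = 0.0764); its exons share 458 bases with the opposite-strand gene Dtx3l, and whether the counting used strand is not stated. Parp12 was at 47.3, 52.2, 43.8, 49.7 and 56.3 CPM under the control ASO and at 55.8, 53.6, 51.8, 56.6 and 55.5 CPM under the Mboat7 ASO. Parp12 overlapped through control replicates 2 and 5 and was not called (log2 fold change 0.13 ± 0.065, adjusted p = 0.127). Parp9 was called lower without control replicate 2 (adjusted p = 0.0399) or Mboat7 ASO replicate 9 (0.0333), and Parp12 higher without control replicate 5 (0.0409). These calls were also made in 2 of 10 other alternatives (adjusted p = 0.0157 to 0.0452) for Parp9 and with no normalization factor (0.00978) for Parp12.

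None of the 5 transcription factors of the list was called. Irf7 was at 38.7, 53.7, 35.8, 37.2 and 44.95 CPM under the control ASO and at 54.7, 50.6, 49.1, 55.02 and 45.1 CPM under the Mboat7 ASO. Irf7, the main activator of type I interferon genes, was within the Mboat7 ASO range in control replicate 2 alone (log2 fold change 0.28 ± 0.11, adjusted p = 0.0633). Irf8 was at 3.44, 11, 5.67, 6.95 and 3.50 CPM under the control ASO and at 16.2, 10.7, 9.60, 6.20 and 8.55 CPM under the Mboat7 ASO. Irf8, which directs the development of monocytes and dendritic cells, was highest in control replicate 2 and Mboat7 ASO replicate 6 of their groups (log2 fold change 0.75 ± 0.33, adjusted p = 0.095). Irf9 was at 48.8, 41.1, 45.8, 43.1 and 49.9 CPM under the control ASO and at 40.4, 40.1, 40.5, 43.9 and 33.2 CPM under the Mboat7 ASO. Irf9, the DNA-binding part of the complex with STAT2, was lowest in Mboat7 ASO replicate 10 (log2 fold change -0.21 ± 0.079, adjusted p = 0.0563), and it shares 123 exon bases with its neighbour Rnf31. Irf1 was at 50.2, 38.97, 43.5, 30.5 and 28.5 CPM under the control ASO and at 45.1, 38, 38.7, 25.1 and 28.6 CPM under the Mboat7 ASO. Irf1, an activator induced through the GAS, overlapped fully (log2 fold change -0.13 ± 0.18, adjusted p = 0.612), and so did Stat2 (73.6 to 89.9 CPM in control and 69.4 to 84.4 CPM in Mboat7 ASO livers; log2 fold change -0.098 ± 0.071, adjusted p = 0.292). Without control replicate 2, Irf7 (0.38, adjusted p = 0.00501) and Irf8 (1.07, 0.0144) were called higher and Irf9 (-0.24, 0.0305) lower; Irf9 was also called without Mboat7 ASO replicate 9 (-0.25, 0.0354). Irf7 was called in 5 of 10 other alternatives (adjusted p = 0.0102 to 0.0488), Irf8 in 2 of 10 other alternatives (adjusted p = 0.0064 to 0.049) and Irf9 in 5 of 10 other alternatives (adjusted p = 0.0187 to 0.0434).

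Immunity-related GTPases disrupt the vacuoles of intracellular microbes, and 2 of the 3 fell. Irgm1 was at 92.2, 91.9, 85.1, 93.6 and 89.9 CPM under the control ASO and at 81, 65.1, 78.7, 74.1 and 58.7 CPM under the Mboat7 ASO. Irgm1, which holds the effector GTPases inactive on the cell's own membranes, was lower in every Mboat7 ASO liver than in any control liver (90.5 ± 3.31 CPM (SD, n = 5) in the control livers and 71.5 ± 9.39 CPM in the Mboat7 ASO livers; log2 fold change -0.34 ± 0.084, adjusted p = 0.0102). Igtp was at 46.1, 74.4, 64.7, 80.02 and 58.1 CPM under the control ASO and at 54.4, 32.9, 48.6, 31.03 and 27.2 CPM under the Mboat7 ASO. Igtp, another regulator of the same kind, fell with 2 Mboat7 ASO livers, replicates 6 and 8, inside the control range (log2 fold change -0.73 ± 0.20, adjusted p = 0.0169), and was not called without both control replicate 2 and Mboat7 ASO replicate 9 (-0.61, adjusted p = 0.0549). Iigp1 was at 319.7, 345, 322, 361 and 344 CPM under the control ASO and at 317, 292, 343, 284 and 244 CPM under the Mboat7 ASO. Iigp1, an effector of the family, was not called (log2 fold change -0.19 ± 0.086, adjusted p = 0.093), and it was called lower without Mboat7 ASO replicate 8 (-0.25, adjusted p = 0.0392). Igtp shares 162 exon bases with its neighbour Irgm2 on the same strand.

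Guanylate-binding proteins, which attack the same vacuoles and are induced most by interferon gamma, were not called, and the groups overlapped in each of the 4. Gbp2 was at 7.61, 21.9, 5.11, 13.4 and 7.29 CPM under the control ASO and at 25.3, 13.2, 13.3, 6.02 and 7.86 CPM under the Mboat7 ASO. Control replicate 2 and Mboat7 ASO replicate 6 were the highest livers of their groups (log2 fold change 0.25 ± 0.44, adjusted p = 0.681). Gbp3 was at 8.83, 19.2, 9.19, 13.2 and 14.4 CPM under the control ASO and at 15.8, 11.6, 15.3, 11.4 and 9.64 CPM under the Mboat7 ASO. Gbp6 was at 5.58, 13.1, 4.59, 8.74 and 7.64 CPM under the control ASO and at 11.02, 7.81, 11.2, 7.59 and 6.74 CPM under the Mboat7 ASO. Control replicate 2 was again highest, in Gbp3 (log2 fold change -0.027 ± 0.22, adjusted p = 0.931) and in Gbp6 (log2 fold change 0.16 ± 0.26, adjusted p = 0.642). Gbp7 was at 17.4, 27.01, 22.7, 24.4 and 23.1 CPM under the control ASO and at 30.6, 23.9, 31.5, 20.03 and 20.3 CPM under the Mboat7 ASO. Gbp7 was highest in Mboat7 ASO replicates 6 and 8 and lowest in control replicate 1 (log2 fold change 0.14 ± 0.15, adjusted p = 0.484). Summed over the 4 genes, control replicates 1 to 5 gave 39.5, 81.2, 41.6, 59.7 and 52.4 CPM and Mboat7 ASO replicates 6 to 10 gave 82.7, 56.5, 71.2, 45.0 and 44.5 CPM. The 12 T and NK cell markers, cells that make interferon gamma, summed to 2.06, 8.90, 2.79, 6.65 and 3.08 CPM in the controls and 11.3, 4.64, 5.59, 3.34 and 3.88 CPM in the Mboat7 ASO livers. The order of the 5 control livers was the same by both sums, from replicate 2 down to replicate 1, and replicates 6, 8 and 7 led both orders among the Mboat7 ASO livers. The pan-leukocyte sum gave that control order too (189, 139, 128, 123 and 116 CPM in replicates 2, 4, 5, 3 and 1). Replicates 6, 8 and 7 led it as well (475, 382 and 368 CPM), so the order is not particular to T and NK markers. The T and NK marker counts are few (Cd3d 1 to 20 and Cd8a 0 to 66 a library, none of 6 tested markers called), and their part in the level of the guanylate-binding proteins was not tested. Gbp genes are close copies, so counts of single members are uncertain.

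**Figure D4:**
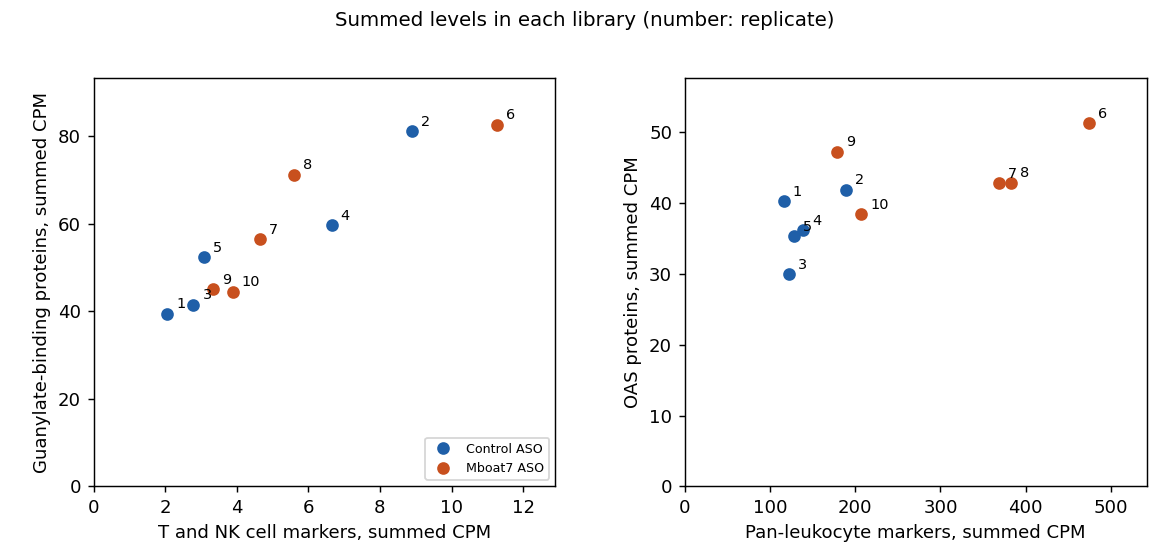
Summed CPM of the 4 guanylate-binding proteins against that of 12 T and NK cell markers (left) and of the 5 OAS proteins against 12 pan-leukocyte markers (right), 1 point a library, labelled with its replicate number; blue is Control ASO and orange Mboat7 ASO, and axes start at 0. On the left, control replicate 2 (81.2 CPM) and Mboat7 ASO replicate 6 (82.7 CPM) lie together at the top, and on the right the Mboat7 ASO replicates 9 and 10 lie near the control livers in leukocyte markers. The OAS sum includes Oasl1, the most abundant of the 5 genes, which was not called.

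Control replicate 2 touched many of these results. It had the highest pan-leukocyte (189 CPM), macrophage (260.5 CPM) and T and NK cell (8.90 CPM) sums of the controls, and it was the highest control in Oas2, Oas3, Oasl2, Ifit2, Trim30a, Irf7, Irf8, Zbp1 and all 4 Gbp genes. Without it, levels of all Mboat7 ASO livers lay above all controls in 8 members (20%, against 19.3% of all genes): Eif2ak2, Ifih1, Irf7, Ifit2, Oas2, Oas3, Oasl2 and Trim30a. Without both control replicate 2 and Mboat7 ASO replicate 9, 4 members rose over 2-fold (10%, against 10.2% of all genes): Oas3 (1.97), Oas2 (1.62), Irf8 (1.21) and Ifit2 (1.06). Those 2 libraries hold the highest control (189 CPM) and the lowest Mboat7 ASO (179 CPM) pan-leukocyte sum. Leaving out both therefore widens the contrast in leukocyte markers by construction. Whether leukocyte RNA carries part of the differences above was not tested. Of the OAS genes the sum was 38.4 and 47.3 CPM in replicates 10 and 9, the Mboat7 ASO livers of the fewest leukocyte counts, and 42.8 to 51.3 CPM in replicates 6 to 8, against 30.0 to 41.9 CPM in the controls. The uncalled Oasl1 made up 29.2 CPM of the sum in replicate 9 and 18.4 CPM in replicate 10, so the sum does not follow Oas2, Oas3 and Oasl2. Among Mboat7 ASO livers, Oas2 (4.92 CPM) and Oas3 (1.87 CPM) were lowest in replicate 9 and Oasl2 (6.94 CPM) in replicate 10. Oas2 (9.67 CPM), Oas3 (3.99 CPM) and Oasl2 (10.4 CPM) were each highest in replicate 6, the liver of the most leukocyte counts. Eif2ak2 was at 21.1 to 23.1 CPM across the Mboat7 ASO livers, and how its level relates to leukocyte RNA was not tested.

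Length of the transcript also moved with direction. The 9 members that rose had a median annotated exon length of 6.37 kb, the 6 that fell 1.87 kb and the 25 not called 3.98 kb; over all genes these medians were 6.06, 2.90 and 4.45 kb. Across the 40 members the Spearman correlation of length with log2 fold change was 0.537, and across 12552 genes 0.325; genes share their libraries, so both are descriptions. When all genes were divided by length into 5 equal classes, 5 of the 7 members in the shortest class (up to 2482 bases) fell, with a median log2 fold change of -0.42 over the 7 and of -0.18 over all genes of the class. When the length trend of each library was removed, 7 members were higher (17.5%, against 17.3% of all genes) and 5 lower (12.5%, against 14.7%): Isg15 (-0.19, adjusted p = 0.173), Rtp4 (-0.28, 0.0858), Igtp (-0.59, 0.0557), Parp14 (0.18, 0.119), Ifih1 (0.12, 0.191) and Ddx58 (0.031, 0.597) were no longer called, while Irf7 (0.30, 0.0488) was called higher and Irf9 (-0.25, 0.0366) and Iigp1 (-0.26, 0.0409) lower. Oas2, Oas3, Oasl2, Ifit2, Trim30a and Eif2ak2 stayed higher there, and Ifitm3 (-0.34, adjusted p = 0.0046), Ifi35 and Irgm1 stayed lower. With no normalization factor, which shifted the median of all genes to 0.169, 11 members were higher (27.5%, against 37% of all genes) and 2 lower (5%, against 6.12%), Ifi35, Rtp4, Irgm1 and Igtp were no longer called, and 85.8% of all calls were higher against 55% with upper-quartile scaling.

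**Figure D5:**
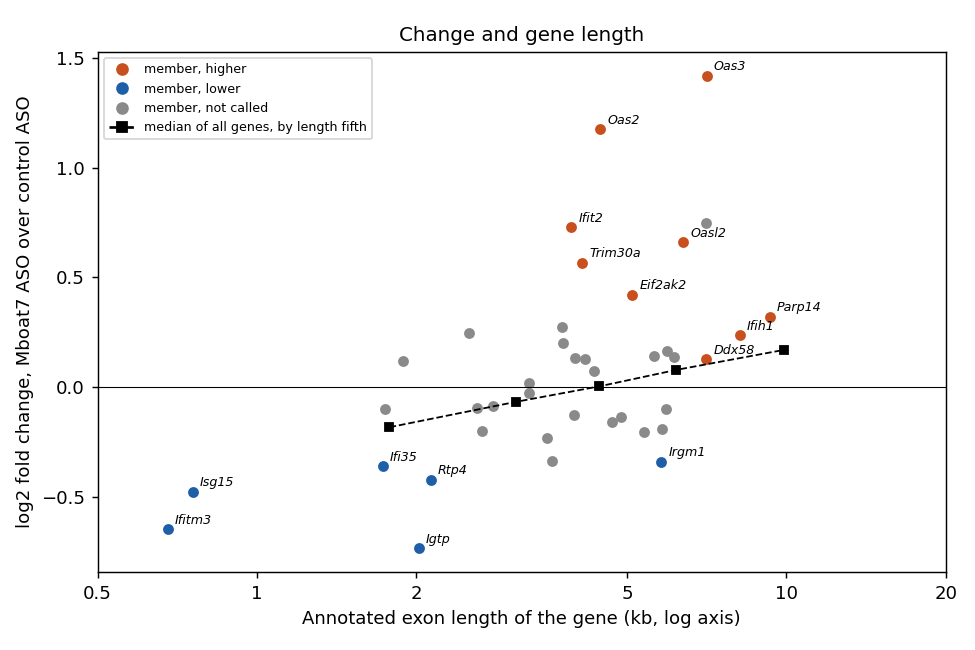
Log2 fold change (y axis) against annotated exon length in kilobases (x axis, log scale) for the 40 members, orange where called higher, blue where called lower and grey otherwise; black squares joined by a dashed line are the medians of all genes in 5 equal classes of length. The line climbs from -0.18 to 0.17, and Isg15, Ifitm3, Ifi35, Rtp4 and Igtp lie at the short end below it.

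The rest of the pathway was read in 108 other genes, also chosen with earlier results of these data known. Of the 108, 107 were in the table and 91 passed the filter. Of these 91, 28 were higher (30.8%, against 21.2% of all genes) and 6 lower (6.59%, against 17.3%). That filter kept 6 of them through Mboat7 ASO livers only (Ifnlr1, Tlr9, Mb21d1, Ifit1bl1, Phf11b and Tgtp2), a route that by itself favours a difference, and 5 of the 6 were called higher. Interferon genes themselves were at or near 0 counts: none of 10 passed the filter. Ifnb1, the gene of interferon beta, had 0 counts in all 10 libraries, which allows up to 3 counts a library (0.0942 to 0.129 CPM). Ifng, the gene of interferon gamma, had 0, 0, 0, 1 and 1 counts in the control livers and 4, 1, 1, 0 and 1 in the Mboat7 ASO livers. Of 7 markers of plasmacytoid dendritic cells, the main makers of interferon alpha, 3 passed the filter: Ly6d (log2 fold change 2.25) and Tcf4 (0.28) were called higher and Bst2 (-0.16) was not called. All 3 are also made by other cells, and the more specific Siglech was at 7 to 27 counts a library.

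Receptor genes changed in both directions, 3 higher and 1 lower of 6, where 21.2% of all genes rose and 17.3% fell. Ifnlr1 was at 0.268, 0.238, 0.172, 0.112 and 0.114 CPM under the control ASO and at 2.98, 1.96, 2.94, 0.293 and 0.296 CPM under the Mboat7 ASO. Ifnlr1, the receptor subunit for type III interferon, passed the filter only through Mboat7 ASO livers and was high in Mboat7 ASO replicates 6 to 8, the livers of most leukocyte counts, and near the controls in 9 and 10 (log2 fold change 3.20 ± 0.73, adjusted p = 0.00709; 0.0796 by limma-voom). Il10rb was at 5.28, 10.4, 5.45, 5.98 and 4.56 CPM under the control ASO and at 19.5, 13.96, 13.5, 9.02 and 12.2 CPM under the Mboat7 ASO. Il10rb, its partner subunit, rose with control replicate 2 above Mboat7 ASO replicate 9 (log2 fold change 1.11 ± 0.24, adjusted p = 0.00633). Ifnar2 was at 63.9, 59.6, 64.6, 57.3 and 52.9 CPM under the control ASO and at 57.05, 56.2, 48.3, 45.5 and 47.7 CPM under the Mboat7 ASO. Ifnar2, a subunit of the type I receptor, fell (log2 fold change -0.23 ± 0.08, adjusted p = 0.042), a call that was kept only without control replicate 5 or Mboat7 ASO replicate 6 or 7 and lost in the other 7 fits without 1 library (adjusted p up to 0.1), and lost in 3 of 10 other alternatives (adjusted p = 0.0671 to 0.528). Its partner Ifnar1 was not called (log2 fold change -0.031 ± 0.063, adjusted p = 0.721). For interferon gamma, Ifngr1 rose from 16.7 ± 1.81 CPM (SD, n = 5) in the control livers to 22.99 ± 4.79 CPM in the Mboat7 ASO livers (log2 fold change 0.46 ± 0.14, adjusted p = 0.021), and Ifngr2 at 25.9 ± 5.55 CPM (SD, n = 5) in the control livers and 32.6 ± 3.23 CPM in the Mboat7 ASO livers was not called (log2 fold change 0.34 ± 0.13, adjusted p = 0.0561) but was called higher without control replicate 2 (0.47, adjusted p = 0.00219) and in 6 of 10 other alternatives (adjusted p = 0.0018 to 0.043).

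Of the kinases below the receptors, Jak2 (log2 fold change 0.26 ± 0.071, adjusted p = 0.016) and Jak1 (log2 fold change 0.21 ± 0.062, adjusted p = 0.0221) rose slightly, with the Jak1 call lost without control replicate 3 (0.056) or Mboat7 ASO replicate 6 (0.0571) and with the length trend removed (0.11, adjusted p = 0.152). Tyk2 was not called (log2 fold change 0.14 ± 0.054, adjusted p = 0.066), but it was called higher without control replicate 2 (0.0497) and in 2 of 10 other alternatives (adjusted p = 0.00368 to 0.0396). Of the upstream sensors, 4 of 10 tested rose and none fell, where 21.2% of all genes rose and 17.3% fell. Tlr9, the endosomal DNA receptor, passed the filter only through Mboat7 ASO livers and went from 0.178 ± 0.0762 CPM (SD, n = 5) in the control livers to 1.57 ± 0.759 CPM in the Mboat7 ASO livers (log2 fold change 3.10 ± 0.43, adjusted p = 0.00175), and Tlr7, the RNA receptor, from 1.03 ± 0.572 CPM (SD, n = 5) in the control livers to 2.82 ± 1.32 CPM in the Mboat7 ASO livers (log2 fold change 1.45 ± 0.42, adjusted p = 0.0201). Tmem173 (STING) went from 1.55 ± 0.613 CPM (SD, n = 5) in the control livers to 3.37 ± 0.693 CPM in the Mboat7 ASO livers (log2 fold change 1.12 ± 0.25, adjusted p = 0.0065) and the DNA sensor Aim2 from 0.744 ± 0.472 CPM (SD, n = 5) in the control livers to 1.88 ± 0.844 CPM in the Mboat7 ASO livers (log2 fold change 1.34 ± 0.43, adjusted p = 0.031). Controls reached 1.72 CPM in Tlr7 and 1.47 CPM in Aim2, above Mboat7 ASO replicate 9 (1.21 and 1.06 CPM). Tlr7, Tmem173 and Aim2 were highest in replicate 6 and Tlr9 in replicate 8, the livers of most leukocyte counts. The part of leukocyte RNA was not tested. The 4 sensor genes are at low levels in both groups, and Tlr7 lost its call without control replicate 3 (0.0501) or Mboat7 ASO replicate 6 (0.0527). Aim2 kept its call in the fits without control replicate 2 or Mboat7 ASO replicate 7, 9 or 10 and lost it in the other 6 (adjusted p up to 0.0826).

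Among 6 kinases and factors that induce interferon, 1 fell and 1 rose. Irf3 was at 76.5, 65.6, 75.6, 65.3 and 65.7 CPM under the control ASO and at 49.4, 52.7, 47.5, 51.9 and 45.4 CPM under the Mboat7 ASO. Irf3, which is activated by phosphorylation and drives interferon beta, was lower in every Mboat7 ASO liver (log2 fold change -0.50 ± 0.067, adjusted p = 0.00168). Traf3 was at 19.04, 19.7, 14.99, 18.6 and 18.8 CPM under the control ASO and at 26.5, 20.2, 22.8, 21.4 and 22.96 CPM under the Mboat7 ASO. Traf3, an adaptor in front of the kinase Tbk1, was higher in every Mboat7 ASO liver (log2 fold change 0.32 ± 0.089, adjusted p = 0.0164) and lost its call with the length trend removed (0.0689). Tbk1 (log2 fold change 0.063 ± 0.042, adjusted p = 0.249) and Ikbke (log2 fold change 0.20 ± 0.12, adjusted p = 0.188) were not called. Ikbke was called higher without control replicate 2 (0.047) and in 2 of 10 other alternatives (adjusted p = 0.0213 to 0.042), and Tbk1 with no normalization factor (0.00503). Inhibitors changed too: the phosphatases Ptpn1 (log2 fold change 0.55 ± 0.12, adjusted p = 0.00685) and Ptpn6 (log2 fold change 0.56 ± 0.14, adjusted p = 0.00894) rose. Ptpn2, a tyrosine phosphatase, fell (log2 fold change -0.18 ± 0.063, adjusted p = 0.0394), kept only without control replicate 1 or Mboat7 ASO replicate 6 among the fits without 1 library (adjusted p up to 0.0851 in the other 8), and lost in 4 of 10 other alternatives (adjusted p = 0.0546 to 0.827). Irf2bp1 was not called (log2 fold change -0.21 ± 0.09, adjusted p = 0.0883), but it was called lower without Mboat7 ASO replicate 9 (0.0386) and without libraries 2 and 9 (0.0387).

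Of 37 other interferon-stimulated genes tested, 14 rose and 1 fell, where 21.2% of all genes rose and 17.3% fell. Ifit1bl1 and Phf11b, among the 14, passed the filter only through Mboat7 ASO livers. Of the 40 members 9 rose and 6 fell, and the difference between the 2 lists was not tested. Samd9l was at 30.9, 36.2, 26.3, 32.8 and 32.9 CPM under the control ASO and at 58.3, 47.8, 50.9, 48.7 and 56.1 CPM under the Mboat7 ASO. Samd9l, a translation-arresting restriction factor, separated the groups completely (log2 fold change 0.72 ± 0.087, adjusted p = 0.00134). Ifit1bl1 was at 0.0765, 0.159, 0.0859, 0.149 and 0.342 CPM under the control ASO and at 3.95, 4.38, 4.19, 0.587 and 0.559 CPM under the Mboat7 ASO. Ifit1bl1 passed the filter only through Mboat7 ASO livers and was high in replicates 6 to 8 and low in 9 and 10, the same division as in Ifnlr1 (log2 fold change 4.02 ± 0.73, adjusted p = 0.00334; 0.0509 by limma-voom with quality weights). Ifi204 was at 3.29, 6.24, 3.35, 4.37 and 3.12 CPM under the control ASO and at 13.1, 9.70, 9.46, 6.31 and 7.73 CPM under the Mboat7 ASO. Ifi204, a DNA-binding protein of the mouse, was higher in every Mboat7 ASO liver (log2 fold change 1.19 ± 0.23, adjusted p = 0.00418). Cxcl11 was at 5.43, 4.25, 5.28, 4.75 and 4.03 CPM under the control ASO and at 3.04, 3.13, 3.12, 3.34 and 2.53 CPM under the Mboat7 ASO. Cxcl11, a ligand of the chemokine receptor Cxcr3, was lower in every Mboat7 ASO liver (log2 fold change -0.65 ± 0.13, adjusted p = 0.00407), while the related Cxcl9 (log2 fold change -0.31 ± 0.53, adjusted p = 0.671) and Cxcl10 (log2 fold change -0.006 ± 0.35, adjusted p = 0.99), named after their values were seen, overlapped. Other GTPases gave 2 higher and 1 lower of 10 tested: Tgtp2, kept through Mboat7 ASO livers only (log2 fold change 1.27 ± 0.41, adjusted p = 0.0318), and Gbp9 (log2 fold change 0.84 ± 0.30, adjusted p = 0.0427) rose, Ifi47 fell (log2 fold change -0.56 ± 0.20, adjusted p = 0.0452) and Irgm2 was not called (log2 fold change -0.36 ± 0.14, adjusted p = 0.0594). Irgm2 was called lower without Mboat7 ASO replicate 8 (0.0162) and in 4 of 10 other alternatives (adjusted p = 0.0295 to 0.0484). Calls of Tgtp2, Gbp9 and Ifi47 were weak: Gbp9 kept its call only without control replicate 2 or Mboat7 ASO replicate 9 or 10 (adjusted p up to 0.106 in the other 7 fits), Ifi47 only without control replicate 3 or 5 or Mboat7 ASO replicate 6 (up to 0.0921), and Tgtp2 lost it in 6 of 9 fits (up to 0.0747), keeping it without control replicate 2 or Mboat7 ASO replicate 7 or 9. Other alternatives lost Gbp9 with the length trend removed (0.0523) and Ifi47 in 3 of 10 other alternatives (adjusted p = 0.102 to 0.149). The immunoproteasome and peptide-loading genes, which prepare peptides for MHC class I, gave 1 lower of 9: Psme2, a proteasome activator subunit (log2 fold change -0.30 ± 0.057, adjusted p = 0.00375; 0.0556 with the length trend removed). Its neighbours in rank, Psmb10 (log2 fold change -0.34 ± 0.13, adjusted p = 0.0598), Psme1 (log2 fold change -0.15 ± 0.075, adjusted p = 0.125) and B2m (log2 fold change -0.089 ± 0.057, adjusted p = 0.231), were not called. Psmb10 was called lower without control replicate 1 (0.0396) or Mboat7 ASO replicate 6 (0.0277) or 7 (0.0453) and in 4 of 10 other alternatives (adjusted p = 0.0282 to 0.0456), Psme1 without Mboat7 ASO replicate 6 (0.0322), and B2m by DESeq2 (0.0428).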

How the data were processed

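Raw counts per gene symbol were deposited; per the labels and the study's methods the authors used FastQC 0.11.3 for quality control and Trim Galore 0.3.3 for trimming, then aligned the single-end reads to mm10 (GRCm38) in STAR, which also counted them per gene. The sources used here do not give the strand setting. The table's 10 columns that match no sample of this series were not used. Library totals were 25153235 to 28791798 counts, so 3 counts correspond to 0.0942 to 0.129 CPM; such limits cover counting error only.

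Genes with at least 1 CPM in at least 1 library were tested with edgeR 4.0.16 (R 4.3.3; quasi-likelihood F-test, upper-quartile normalization, Benjamini-Hochberg adjustment over 12609 genes, threshold 0.05), Control ASO against Mboat7 ASO, n = 5 a group. Every adjusted p in the text comes from this test unless another is named; CPM use the upper-quartile library sizes, and a standard error is the log2 fold change divided by the root of F. RPKM used GENCODE exon lengths on GRCm38. The alternatives were TMM, RLE and no normalization factor, no filter, 1 CPM in 5 libraries, DESeq2 1.42.0, limma-voom (limma 3.58.1) with and without quality weights, each library left out, libraries 2 and 9 left out together, and each library's length trend removed by loess (span 0.3, prior count 2), whose robust form was chosen after a first result had been seen. The fit was tested on simulated data. Of the alternatives, the one without libraries 2 and 9 drops the control of highest and the Mboat7 ASO liver of lowest pan-leukocyte sum. It widens the contrast in leukocyte markers by construction. The members, the other lists and the tests were chosen with earlier results of these data known. Each library's value is given for the 3 members of lowest p in each role group and, in groups of 4 or more, the member of highest p; from the other lists up to 4 genes of lowest p, the type I and gamma receptors, Ifng and Ifnb1 are named; 1 further gene of that rule is not reported here. Promoter sequences came from RefSeq.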

Additional observations from a re-analysis of the deposited data

Results flagged for a closer look

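In 4 of 80 groups of 5 livers, 1 library stood far from the others, and chance alone marks about 1 group in 20. Oas3 was at 2.34 CPM in control replicate 2, against 0.760 to 0.988 CPM in the other controls. Eif2ak2 was at 23.1 CPM in Mboat7 ASO replicate 9, against 21.1 to 21.5 CPM in the other livers of that group, all of them above the controls. Oas1a was at 4.71 CPM in Mboat7 ASO replicate 6, against 3.65 to 3.95 CPM. Mx1 was at 1.55 CPM in control replicate 3, against 2.24 to 2.52 CPM.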

How the results depend on the processing

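Of the 15 members called, 5 (Eif2ak2, Oas2, Oas3, Oasl2 and Ifitm3) kept their call in all 20 alternatives; over all 15 the call was kept 262 times and lost 38 times, and no direction was reversed. With no normalization factor, which moves the median of all genes from 0.010 to 0.169, 2 members were lower (6 with upper-quartile scaling), 6 were higher without overlap (1), and 44 other pathway genes were higher (28) and 3 lower (6). DESeq2 called 10 other pathway genes lower. Without libraries 2 and 9, a removal that widens the leukocyte contrast by construction, 4 members were over 2-fold higher (2) and 9 higher without overlap. With 1 library left out, the members called higher ranged from 5 (without control replicate 3) to 10 and those lower from 5 to 8, those over 2-fold from 2 to 3, those higher without overlap from 1 to 8 (without control replicate 2), and other pathway genes higher from 19 to 36 and lower from 3 to 8. Members not called in the report reversed 27 times. The values given next also cover the other pathway genes Ifnar1, B2m and Psme1, which are not part of the 27. With no factor the log2 fold change was 0.037 for Irf1, 0.061 for Stat2, 0.058 for Ifit3, 0.060 for Oasl1, 0.000 for Xaf1, 0.069 for Usp18, 0.022 for Parp9, 0.132 for Gbp3, 0.128 for Ifnar1, 0.071 for B2m and 0.008 for Psme1. With the length trend removed it was 0.075 for Ifit3, 0.001 for Oasl1, 0.022 for Gbp3 and 0.188 for B2m. By limma-voom it was 0.008 for Gbp3, and with quality weights 0.004 for Ifnar1. Without libraries 2 and 9 it was -0.033 for Dhx58, 0.069 for Zbp1, 0.196 for Gbp3 and 0.025 for Ifnar1. With 1 library left out it ranged from -0.035 to 0.090 for Dhx58, -0.053 to 0.145 for Rsad2, -0.010 to 0.207 for Cmpk2, -0.144 to 0.65 for Gbp2, -0.138 to 0.158 for Gbp3 and -0.065 to 0.000 for Ifnar1. Beyond what fewer libraries or another scaling do by construction, the cause was not tested. No paired analysis was made, because the labels name no pairing of livers between the groups. At this depth genes under 3 counts, such as the interferons, could not be read.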
